A study of Mus musculus with 13 samples.

Results

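The matrix metalloproteinases (MMPs), the ADAMTS proteases, the ADAMTS-like proteins, and the tissue inhibitors of metalloproteinases (TIMPs) were followed through injured and uninjured sciatic nerves of control and RaptorKO mice. The genes were taken by name: each protein-coding gene whose symbol was Mmp or Adamts followed by a number, Adamtsl followed by a number, or Timp1 to Timp4. This gave 50 of the 40787 genes in the count table, namely 22 Mmp, 19 Adamts, 5 Adamtsl, and 4 Timp genes. Fold changes are given for the 31 of these 50 genes that had 50 or more counts in at least 2 of the 13 libraries. That filter left 12851 genes over the whole table.

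All mice were labelled C57BL/6, a background to which the lines had been backcrossed over several generations, and were homozygous for floxed alleles of Rptor, which encodes Raptor, the defining subunit of the mTORC1 kinase complex. Controls carried no Cre. RaptorKOs carried a tamoxifen-inducible CreERT2 whose promoter is active in Schwann cells (SCs), so cells of other types kept their floxed alleles unless they used that promoter. Every mouse received tamoxifen at 2 months of age, had 1 sciatic nerve crushed 2 months later, and gave its nerves 5 days post crush (dpc). Both sexes were used. The 13 libraries, 1 per nerve, comprised 3 control and 4 RaptorKO contralateral nerves and 3 control and 3 RaptorKO injured nerves. The library titles number the mice within each genotype, so that an injured and a contralateral nerve with the same number are likely to come from the same mouse, although no source used here says so outright. The main tests treated all libraries as independent, and the number was used as a block in an alternative. The block is named beside a result where it changed the call in the injury or interaction comparisons. Between genotypes a shared number marks different mice. RNA came from the whole nerve distal to the crush after the epineurium had been stripped off, so a library mixes SCs with macrophages, fibroblasts, and vascular cells. In such bulk RNA, fewer cells of a type and less RNA per cell cannot be told apart.

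Libraries held 8200458 to 13581775 counts. Levels are counts per 1000000 counts (CPM) after TMM scaling, and edgeR adjusted p stands for the Benjamini-Hochberg adjusted p of edgeR's quasi-likelihood test over all tested genes. A gene counts as called, or as having risen or fallen, where that p was under 0.05 and the change exceeded 1.2-fold. Rptor itself was lower in RaptorKOs, with 35.2 to 48.8 CPM in control against 23.3 to 28.8 CPM in RaptorKO injured nerves (edgeR adjusted p = 0.0188) and 43.9 to 52.7 against 22.2 to 28.2 CPM in contralateral nerves (edgeR adjusted p = 0.000461). Both libraries of control number 3 stood apart in sex-linked genes, with 14462 and 15017 counts of Xist against 4 to 17 in the other libraries. Summed over Ddx3y, Kdm5d, Uty, and Eif2s3y on chromosome Y, they had 20 and 10 counts against 1456 to 2338. By these genes control number 3 was female and all other libraries were male, so sex was not balanced between genotypes. The 8 SC markers checked all passed the count filter and summed to 60730 to 67410 CPM in control contralateral and 5518 to 6102 CPM in control injured nerves, and 5 of the 8 were called lower and 1 higher after injury in controls. All 10 macrophage markers were called higher after injury in both genotypes, from between 164 and 188 to between 2812 and 3481 summed CPM in controls and from between 268 and 336 to between 1885 and 3838 in RaptorKOs.

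MMPs are zinc proteases that are made as inactive proenzymes and, once activated, cut collagens, laminins, and other proteins of the extracellular matrix, while TIMPs block their active site. ADAMTS proteases are secreted relatives that bind the matrix through thrombospondin repeats and cut proteoglycans or process procollagens, and the ADAMTS-like proteins share their ancillary domains but have no protease domain. In peripheral nerve these proteins act on the endoneurial matrix, the SC basal lamina, and the blood-nerve barrier, all of which are remodeled after a crush.

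Much of the Mmp family was not detectable at this depth. No counts at all were found in any library for Mmp1b, Mmp7, Mmp10, Mmp20, and Mmp21, and a count of 0 allows up to 3 counts per library (counting error only). The collagenase Mmp13 had at most 2 counts, Mmp24 3, Mmp25 4, and the stromelysin Mmp3 20 counts in any library. The macrophage metalloelastase Mmp12 reached 36, Mmp16 52, and the collagenase Mmp8 53 counts, each below the filter. Among the other families, Adamts13 reached 2 counts, Adamts16 7, Adamts3 15, Adamts18 16, Adamts19 16, Timp4 26, and Adamts8 31. Some of these sparse genes are given as counts by condition, with no test. Mmp8 had 0, 4, and 0 counts in control contralateral and 1, 0, 1, and 10 in RaptorKO contralateral nerves against 46, 46, and 53 in control injured and 41, 14, and 40 in RaptorKO injured nerves. At 0 to 1.29 CPM in RaptorKO contralateral and 1.1 to 3.67 CPM in RaptorKO injured nerves these groups overlapped. Mmp8 is known as the collagenase of neutrophils, whose 10 markers summed to 2.06 to 2.83 CPM in control contralateral and 6.82 to 8.65 CPM in control injured nerves and to 1.25 to 4.14 and 4.5 to 9.65 CPM in RaptorKOs. Of these 10 markers only Retnlg passed the filter, with a mean of 0 CPM in control contralateral and 5.27 CPM in control injured nerves. Cxcr2 moved oppositely in controls, from a mean of 2.1 CPM in contralateral to 0.824 CPM in injured nerves. Camp, Elane, and Ly6g were at 0 in every library, and the part of neutrophils in the Mmp8 counts was not tested. Adamts18 had 0, 0, and 4 counts in control injured and 16, 12, and 10 in RaptorKO injured nerves, and at most 1 in any contralateral nerve. Adamts8, a proteoglycan-cleaving relative of Adamts1, had 0 to 3 counts in contralateral and 11 to 31 in injured nerves. Timp4 went the other way, with 9 to 26 counts in contralateral and 0 to 4 in injured nerves.

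Many of the sparse Mmp genes sit together. Chromosome 9 of GRCm38 carries 9 of the 22 Mmp genes between 7272514 and 7699585, a stretch of 427.1 kb, and only Mmp27 of these 9 passed the filter, against 9 of the 13 Mmp genes elsewhere. The AP-1 motif TGAGTCA, searched on both strands from 250 bases before to 50 after each RefSeq start (GRCm38.p6), was present in 6 of the 35 members with a promoter entry, against 5.95% of all 27025 genes. All 6 lie in the chromosome 9 group, and 0 of the 20 matched members with ratios held the motif. The other members with ratios had no promoter entry and were not searched. They are Adamts4, Adamts5, Adamts6, Adamts7, Adamts10, Adamts15, Adamtsl1, Mmp2, Mmp9, Mmp17, and Mmp19, several of which were called after injury or between genotypes. AP-1 is the transcription factor that c-Jun forms with its partners. The 6 windows are shown because they hold the motif, each 5′ to 3′ on the gene's strand with the motif in capitals, which reads TGACTCA where it lies on the other strand.
Mmp1b, chr9:7388103-7388129, minus strand: ttacaaagccTGAGTCAtatagcctct
Mmp3, chr9:7445766-7445792, plus strand: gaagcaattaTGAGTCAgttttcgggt
Mmp7, chr9:7692017-7692043, plus strand: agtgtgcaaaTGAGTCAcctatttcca
Mmp10, chr9:7502269-7502295, plus strand: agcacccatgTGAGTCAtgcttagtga
Mmp12, chr9:7347320-7347346, plus strand: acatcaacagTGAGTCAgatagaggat
Mmp13, chr9:7272469-7272495, plus strand: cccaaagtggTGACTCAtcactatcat

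The motif began 35 to 93 bases before the start in these 6 genes. They had at most 36 counts in any library, injured or not. A TATA box, written TATAAA and searched on the gene's strand, was held by 10 of the 35 members against 9.77% of all genes. Of the 20 matched members with ratios, only Adamts1 and Adamtsl2 had one, and these 2 genes had large changes after injury in opposite directions. Their windows are shown for that reason, with TATAAA in capitals.
Adamts1, chr16:85803130-85803155, minus strand: cctatgtggcTATAAAggggcggccg
Adamtsl2, chr2:27079339-27079364, plus strand: gcctgacagcTATAAAggcagctgcg

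The CRE-like letters TGACGTCA were in 0 of the 35 members and in 2.03% of all genes. A match of letters is a description of the sequence and no evidence of binding.

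The injury comparison asked which members changed in the nerve distal to a crush. In controls, 15 of the 31 members rose and 11 fell, against 32.1% and 32.3% of all tested genes. The median size of the log2 fold change was 1.48 over the members and 0.61 over all tested genes. In RaptorKOs 14 members rose and 9 fell, against 30.4% and 28.2% of all tested genes, with a median size of 1.1 against 0.54. Injured and contralateral nerves did not overlap, in the upward direction, for 15 members in controls and 13 in RaptorKOs (35.9% and 31.5% of all tested genes) and, in the downward direction, for 10 and 9 members (34.4% and 28.9%). The 2 injury comparisons share no libraries. In both of them 12 members rose (Adamts1, Adamts2, Adamts4, Adamts5, Adamts9, Adamts12, Adamts14, Mmp14, Mmp17, Mmp19, Mmp27, and Timp1) and 9 fell (Adamts6, Adamts20, Adamtsl2, Adamtsl3, Adamtsl4, Adamtsl5, Mmp15, Mmp28, and Timp3), and none rose in one genotype and fell in the other. Adamts10, Mmp11, and Timp2 were called in neither. Of the members with ratios, 7 reached 50 counts in 1 condition alone, Adamts4, Adamts17, Mmp9, Mmp27, and Timp1 in injured and Adamts6 and Adamtsl2 in contralateral nerves. For these the filter itself favored a difference with injury. Without them 11 of 24 members rose and 9 fell in controls and 10 rose and 7 fell in RaptorKOs.

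**Figure D1:**
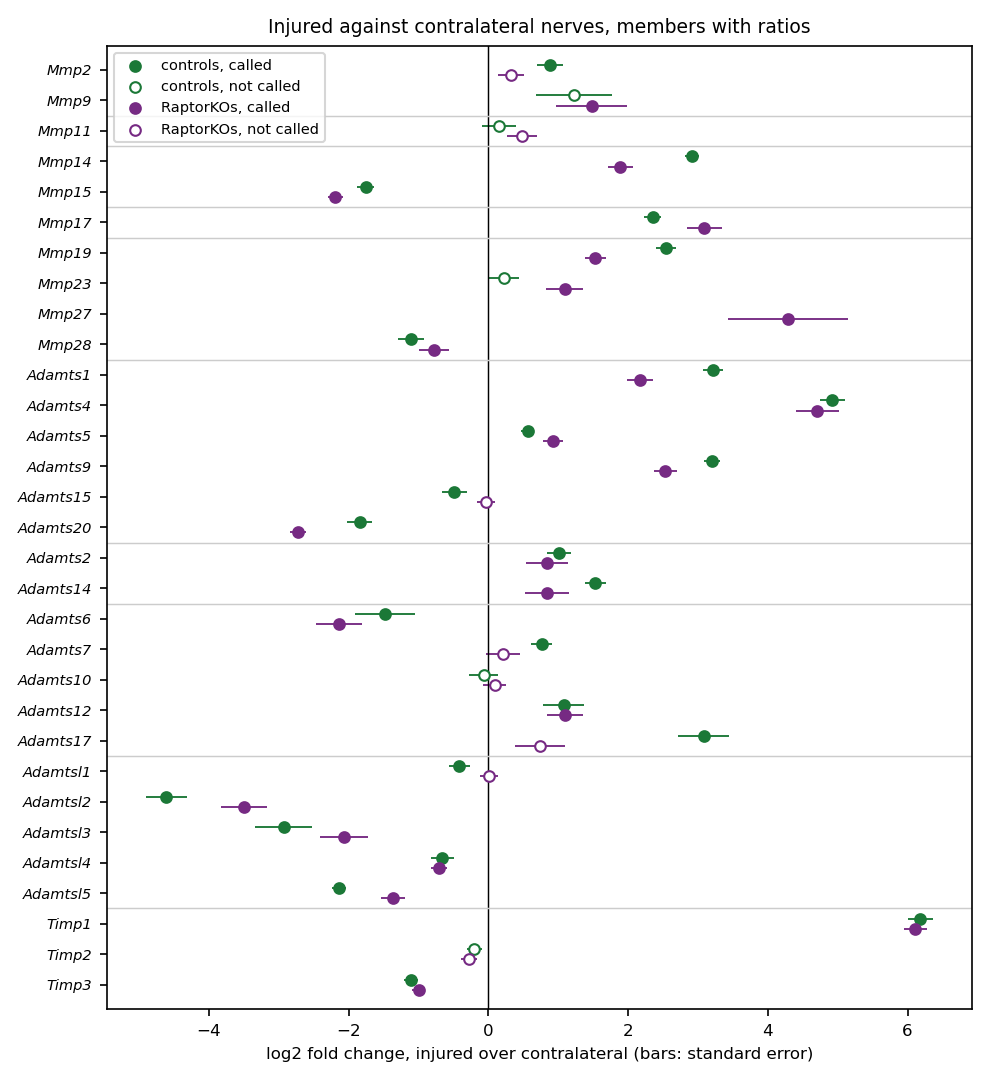
The log2 fold change of injured over contralateral nerves is plotted on the x axis for the members with ratios, grouped by role from gelatinases to TIMPs, with controls in green and RaptorKOs in purple, filled points for called genes, and bars for the standard error. Timp1 lies farthest to the right at 6.18 and 6.11, Adamtsl2 farthest to the left at -4.61 and -3.5, and Mmp27 has no point for controls because its contralateral counts were all 0.

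Among the gelatinases, which cut denatured collagen and basement membrane collagen, Mmp2 was called in controls and Mmp9 in RaptorKOs, but the difference between the genotypes in the response was called for neither (interaction -0.59, edgeR adjusted p = 0.425 and interaction 0.23, edgeR adjusted p = 0.947). Mmp2 had 174, 182, and 149 CPM in control contralateral and 419, 302, and 225 CPM in control injured nerves (log2 fold change 0.88, SE 0.18, edgeR adjusted p = 0.00121). It had 345, 337, 371, and 255 CPM in RaptorKO contralateral and 444, 279, and 499 CPM in RaptorKO injured nerves, where it was not called (log2 fold change 0.32, SE 0.19, edgeR adjusted p = 0.175). The control groups did not overlap, whereas RaptorKO injured 2 lay within the range of its contralateral group. Mmp9, known for opening the blood-nerve barrier, had 1.1, 1.55, and 2.55 CPM in control contralateral and 6.7, 4.05, and 1.57 CPM in control injured nerves, and 4.39, 1.92, 2.01, and 1.42 CPM in RaptorKO contralateral and 9.28, 2.53, and 8.63 CPM in RaptorKO injured nerves. The groups overlapped in both genotypes, since control injured 3 and RaptorKO injured 2 lay within the contralateral range. Mmp9 was not called in controls (log2 fold change 1.22, SE 0.55, edgeR adjusted p = 0.0666) and was called in RaptorKOs (log2 fold change 1.48, SE 0.51, edgeR adjusted p = 0.0276), where the call was lost without RaptorKO injured 1 or 3 or without RaptorKO contralateral 2, 3, or 4 (edgeR adjusted p = 0.125, 0.0982, 0.0614, 0.051, and 0.0644).

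The membrane-type MMPs moved in opposite directions. Mmp14, a cell surface collagenase that also activates pro-Mmp2 in a complex with Timp2, had 51.2, 44.3, and 48.9 CPM in control contralateral and 357, 385, and 359 CPM in control injured nerves (log2 fold change 2.91, SE 0.10, edgeR adjusted p = 3.30e-10). In RaptorKOs it had 80.6, 51.1, 96.3, and 69 CPM in contralateral and 284, 250.2, and 293 CPM in injured nerves (log2 fold change 1.89, SE 0.18, edgeR adjusted p = 6.59e-06). Every injured nerve lay above every contralateral nerve in both genotypes. Mmp15, the closest relative of Mmp14 in this table, fell from between 438 and 496 to between 120.1 and 156 CPM in controls (log2 fold change -1.76, SE 0.12, edgeR adjusted p = 1.31e-07) and from between 441 and 515 to between 89.5 and 110.4 CPM in RaptorKOs (log2 fold change -2.19, SE 0.11, edgeR adjusted p = 8.44e-08). The glycolipid-anchored Mmp17 rose from 42.5, 34.1, and 32.5 to 189, 209, and 169.6 CPM in controls (log2 fold change 2.35, SE 0.12, edgeR adjusted p = 8.55e-09) and from 7.93, 18.5, 10.7, and 15.8 to 122, 126, and 91.5 CPM in RaptorKOs (log2 fold change 3.09, SE 0.25, edgeR adjusted p = 1.98e-06), with no overlap of the groups in either genotype.

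Of the remaining MMPs, Mmp27 was detected almost only after injury. It passed the count filter through the 3 control injured libraries alone, so the filter itself selected for a high level there. Its counts were 0, 0, and 0 in control contralateral and 71, 73, and 80 in control injured nerves, at least 26-fold higher when the contralateral level is set to 3 counts per library (edgeR adjusted p = 3.87e-06). In RaptorKOs the counts were 1, 0, 5, and 0 in contralateral and 40, 21, and 45 in injured nerves (log2 fold change 4.29, SE 0.86, edgeR adjusted p = 0.00129), and the log2 fold change was 6.11 without RaptorKO contralateral 3, which held 5 of the 6 contralateral counts. Mmp27 lies 2910 bases from Mmp8 on the same strand, and both were found mainly in injured nerves. Mmp19, which cuts basement membrane proteins, had 12.9, 14, and 10.8 CPM in control contralateral and 85.8, 66, and 70.9 CPM in control injured nerves (log2 fold change 2.54, SE 0.15, edgeR adjusted p = 2.57e-08). It had 16.7, 14.2, 19.2, and 17.3 CPM in RaptorKO contralateral and 55.1, 41.8, and 49.2 CPM in RaptorKO injured nerves (log2 fold change 1.53, SE 0.15, edgeR adjusted p = 7.61e-06), so all injured nerves lay above all contralateral ones. Mmp19 shares 789 exonic bases with Tmem198b on the other strand. Mmp28, the epilysin, fell from 25.9, 23.8, and 25.2 to 8.71, 12.1, and 14.6 CPM in controls (log2 fold change -1.11, SE 0.19, edgeR adjusted p = 0.000297) and from 13.5, 11.3, 14.9, and 15.5 to 9.64, 8.68, and 5.7 CPM in RaptorKOs (log2 fold change -0.78, SE 0.22, edgeR adjusted p = 0.0101). Mmp23 was called in RaptorKOs, from between 3.1 and 6.99 to between 10.7 and 13.2 CPM (log2 fold change 1.09, SE 0.27, edgeR adjusted p = 0.00556), and not in controls (log2 fold change 0.22, edgeR adjusted p = 0.392), and the difference between the genotypes in this response was not called (interaction 0.84, edgeR adjusted p = 0.273). Mmp11, which is activated inside the cell by furin, had 7.13 to 7.94 CPM in control contralateral, 6.97 to 11.1 in control injured, 7.28 to 9.96 in RaptorKO contralateral, and 9.55 to 14.8 in RaptorKO injured nerves, and was called in neither genotype. Mmp28 and Mmp11 share 466 and 155 exonic bases with 1700020L24Rik and Chchd10 on the other strand.

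The ADAMTS proteases that cut hyalectans such as versican and aggrecan rose in 4 of 6 cases in both genotypes. Adamts4 had 2.56, 2.13, and 2.25 CPM in control contralateral and 82.3, 71.8, and 59.6 CPM in control injured nerves, 30.2-fold higher (log2 fold change 4.92, SE 0.18, edgeR adjusted p = 5.66e-10). In RaptorKOs it had 1.07, 1.99, 1.63, and 4.27 CPM in contralateral and 60, 54.2, and 56.8 CPM in injured nerves (log2 fold change 4.71, SE 0.31, edgeR adjusted p = 4.56e-07). Adamts1 had 21.6, 17, and 24.4 CPM in control contralateral and 228, 174, and 192 CPM in control injured nerves (log2 fold change 3.21, SE 0.14, edgeR adjusted p = 2.56e-09), and 35.1, 25.3, 45.9, and 29.6 CPM in RaptorKO contralateral and 136, 174, and 149 CPM in RaptorKO injured nerves (log2 fold change 2.17, SE 0.18, edgeR adjusted p = 2.91e-06). Neither gene overlapped between injured and contralateral nerves in either genotype. Adamts9 had 11.3, 12.3, and 13 CPM in control contralateral and 129.6, 105, and 106 CPM in control injured nerves (log2 fold change 3.20, SE 0.12, edgeR adjusted p = 7.30e-10), and 29.4, 20.5, 28.9, and 18.9 CPM in RaptorKO contralateral and 128, 144, and 151 CPM in RaptorKO injured nerves (log2 fold change 2.53, SE 0.16, edgeR adjusted p = 3.99e-07). It again showed no overlap. Adamts9 shares 1381 exonic bases with A730049H05Rik on the other strand.

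Adamts5 and Adamts20 differed from this pattern. Adamts5, which lies 53059 bases from Adamts1 on the same strand of chromosome 16, was already expressed in uninjured nerves and rose less. It had 162, 175, and 186 CPM in control contralateral and 279.5, 259, and 246 CPM in control injured nerves (log2 fold change 0.56, SE 0.09, edgeR adjusted p = 0.000244), and 77.4, 72.3, 67.3, and 74.9 CPM in RaptorKO contralateral and 108, 171, and 134 CPM in RaptorKO injured nerves (log2 fold change 0.92, SE 0.14, edgeR adjusted p = 0.000245). Adamts20, the gene altered in belted mice, was the member of this group that fell in both genotypes. It had 92.5, 94.9, and 84.6 CPM in control contralateral and 18.1, 33.6, and 25.7 CPM in control injured nerves (log2 fold change -1.84, SE 0.18, edgeR adjusted p = 2.54e-06), and 123, 137, 120.1, and 145 CPM in RaptorKO contralateral and 21.4, 19.4, and 18.9 CPM in RaptorKO injured nerves (log2 fold change -2.72, SE 0.11, edgeR adjusted p = 2.51e-08). For both genes the injured and contralateral ranges did not overlap in either genotype. Adamts15 fell in controls, from between 31 and 34.6 to between 16.5 and 28.6 CPM (log2 fold change -0.49, SE 0.18, edgeR adjusted p = 0.0325), and not in RaptorKOs (log2 fold change -0.04, edgeR adjusted p = 0.81). That call was lost without control injured 3, control contralateral 1, or control contralateral 3 (edgeR adjusted p = 0.105, 0.093, and 0.0619), and the difference between the genotypes was not called (interaction 0.42, edgeR adjusted p = 0.451).

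Of the 3 procollagen N-proteinases, which trim fibrillar procollagens, the 2 with ratios rose, and Adamts3 was below the filter. Adamts2 went from between 31.1 and 39.4 to between 61.4 and 96.1 CPM in controls (log2 fold change 1.01, SE 0.17, edgeR adjusted p = 0.000236) and from between 40 and 101 to between 75.2 and 138 CPM in RaptorKOs (log2 fold change 0.84, SE 0.30, edgeR adjusted p = 0.0359). Adamts14 went from between 11.9 and 13.2 to between 31.6 and 42.7 CPM in controls (log2 fold change 1.53, SE 0.15, edgeR adjusted p = 3.03e-06) and from between 10.3 and 32.8 to between 37 and 40.8 CPM in RaptorKOs (log2 fold change 0.84, SE 0.31, edgeR adjusted p = 0.038). The RaptorKO calls of both were lost when single libraries were left out. The Adamts14 call was lost without RaptorKO injured 1, 2, or 3 or RaptorKO contralateral 2 (edgeR adjusted p = 0.0899, 0.0867, 0.0679, and 0.086), and the Adamts2 call without RaptorKO injured 1 or 3, RaptorKO contralateral 1, 2, or 4, or in DESeq2 (adjusted p = 0.101, 0.141, 0.0674, 0.0808, 0.086, and 0.076).

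Among the other ADAMTS genes, Adamts17, linked to fibrillin-rich microfibrils and to a Weill-Marchesani-like syndrome in people, rose in controls only by call. It had 2.65, 1.55, and 1.67 CPM in control contralateral and 12.6, 26, and 12.1 CPM in control injured nerves (log2 fold change 3.08, SE 0.36, edgeR adjusted p = 1.28e-05), and 3, 1.92, 3.06, and 1.94 CPM in RaptorKO contralateral and 4.19, 3.08, and 5.24 CPM in RaptorKO injured nerves (log2 fold change 0.74, SE 0.36, edgeR adjusted p = 0.0964). The injured nerves lay above the contralateral ones in both genotypes, and control injured 2 lay far above all other libraries. Adamts12 and Adamts7, which both cut cartilage oligomeric matrix protein, rose in controls by 1.08 (edgeR adjusted p = 0.00671) and 0.76 (edgeR adjusted p = 0.00103) on the log2 scale. In RaptorKOs Adamts12 rose by 1.1 (edgeR adjusted p = 0.00388) and Adamts7 was not called (log2 fold change 0.21, edgeR adjusted p = 0.48), with no call for the difference between genotypes (interaction -0.57, edgeR adjusted p = 0.474). Adamts6 fell from between 3.04 and 5.65 to between 1.18 and 1.66 CPM in controls (log2 fold change -1.48, SE 0.42, edgeR adjusted p = 0.0089), a call lost without control contralateral 2 (edgeR adjusted p = 0.0582), and from between 5.67 and 6.73 to between 1.01 and 1.78 CPM in RaptorKOs (log2 fold change -2.14, SE 0.33, edgeR adjusted p = 0.000248). Adamts10, the closest relative of Adamts6, had 21.6 to 35.4 CPM in control contralateral, 19.8 to 30.8 in control injured, 30.3 to 44.1 in RaptorKO contralateral, and 32.6 to 43.7 in RaptorKO injured nerves, and was called in neither genotype. Adamts7 shares 122 exonic bases with Tbc1d2b on the other strand.

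The ADAMTS-like genes fell, all 5 in controls and 4 of 5 in RaptorKOs. Adamtsl2, which binds fibrillin and latent TGF-beta binding proteins, had 23.8, 16.9, and 16.3 CPM in control contralateral and 0.917, 0.829, and 0.59 CPM in control injured nerves, 24.4-fold lower (log2 fold change -4.61, SE 0.29, edgeR adjusted p = 5.32e-08). In RaptorKOs it had 18, 23.8, 11.7, and 16 CPM in contralateral and 2.14, 1.26, and 1.19 CPM in injured nerves (log2 fold change -3.50, SE 0.32, edgeR adjusted p = 5.81e-06). Adamtsl3 had 32.6, 29.7, and 44.1 CPM in control contralateral and 5.5, 1.2, and 7.47 CPM in control injured nerves (log2 fold change -2.93, SE 0.41, edgeR adjusted p = 5.27e-05), and 59.7, 31.9, 75.9, and 35.6 CPM in RaptorKO contralateral and 10.2, 8.76, and 17.4 CPM in RaptorKO injured nerves (log2 fold change -2.07, SE 0.34, edgeR adjusted p = 0.000421). In each case the lowest contralateral library lay above the highest injured one. Adamtsl5, a fibrillin-binding protein, had 209.8, 188, and 172 CPM in control contralateral and 40.7, 43.5, and 47.1 CPM in control injured nerves (log2 fold change -2.14, SE 0.10, edgeR adjusted p = 5.53e-09), and 153, 176, 154, and 132 CPM in RaptorKO contralateral and 57.1, 76.6, and 44.5 CPM in RaptorKO injured nerves (log2 fold change -1.37, SE 0.17, edgeR adjusted p = 6.07e-05). The groups were again separate in both genotypes. Adamtsl4, which takes part in microfibril formation, fell from between 37.1 and 53.6 to between 23.1 and 31.3 CPM in controls and from between 39.1 and 45.8 to between 24.4 and 26.8 CPM in RaptorKOs (log2 fold changes -0.66 and -0.71). Adamtsl1 was called in controls alone (log2 fold change -0.42, SE 0.15, edgeR adjusted p = 0.0267), with overlapping groups, and that call was lost without control injured 2, control injured 3, or control contralateral 1 (edgeR adjusted p = 0.126, 0.113, and 0.129). The difference between the genotypes was not called for Adamtsl1 (interaction 0.41, edgeR adjusted p = 0.46).

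The markers of several cell types moved with these falls. The 8 fibroblast markers summed to 3663 to 4517 CPM in control contralateral and 1729 to 2999 CPM in control injured nerves, with 4 called lower and 1 higher, and the 5 perineurial markers to 1036 to 1233 and 396 to 464 CPM, with all 5 called lower. In RaptorKOs the fibroblast markers summed to 5531 to 7921 CPM in contralateral and 2476 to 4534 CPM in injured nerves, with 5 called lower and 1 higher, and the perineurial markers to 985 to 1785 and 454 to 478 CPM, with 4 of 5 called lower. Of the 6 endothelial markers 4 were called lower in controls (410.4 to 456 against 228 to 340.3 summed CPM), and 2 lower and 2 higher in RaptorKOs (418 to 521 against 408 to 646 CPM). Of the 6 pericyte and smooth muscle markers 4 were called lower in controls (629 to 696 against 443 to 536 CPM), and 2 lower and 1 higher in RaptorKOs (572 to 764 against 849 to 1143 CPM). The part of these cells, and of macrophages, in the changes of the members was not tested.

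**Figure D2:**
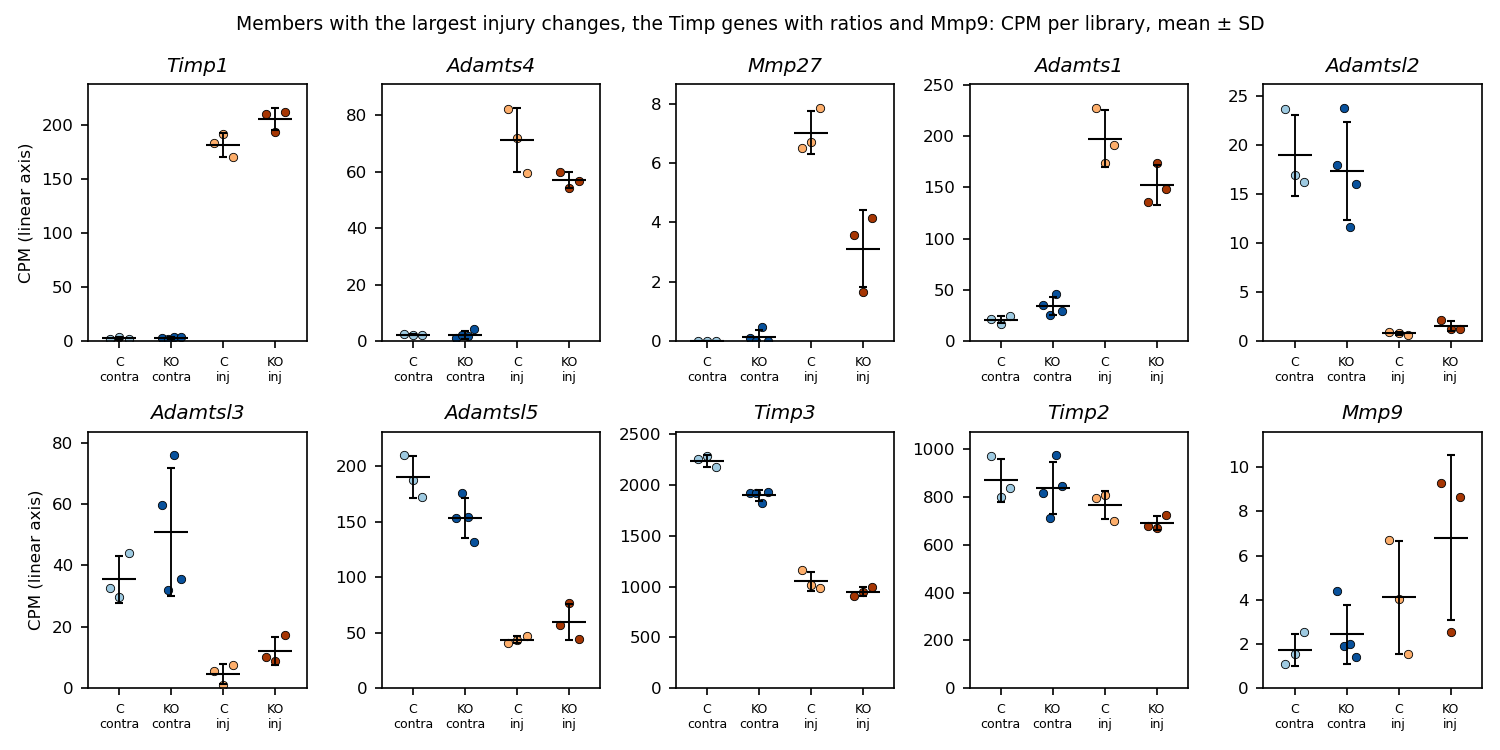
Each panel plots the CPM of 1 gene on a linear axis from 0, with 1 point per library and the mean ± SD of each group, for contralateral (contra) and injured (inj) nerves of controls (C) and RaptorKOs (KO). In Timp1, Adamts4, Mmp27, and Adamts1 all injured libraries lie above all contralateral ones, in Adamtsl2, Adamtsl3, Adamtsl5, and Timp3 all lie below, and in Timp2 and Mmp9 the groups overlap.

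The TIMPs with ratios split into an inhibitor that rose, one that fell, and one that was not called. Timp1, a soluble inhibitor, had 1.74, 3.52, and 1.96 CPM in control contralateral and 183, 192, and 170 CPM in control injured nerves, 72.6-fold higher (log2 fold change 6.18, SE 0.18, edgeR adjusted p = 1.51e-10). In RaptorKOs it had 3, 1.99, 3.45, and 3.62 CPM in contralateral and 210.3, 193, and 212 CPM in injured nerves (log2 fold change 6.11, SE 0.17, edgeR adjusted p = 3.58e-09). No injured library came near a contralateral one. Timp1 is on chromosome X, and control injured 3, which stood apart in sex-linked genes, held the lowest of the control injured values. Timp3, which binds to the matrix and also blocks ADAMTS proteases, had 2256, 2283, and 2175 CPM in control contralateral and 1162, 1016, and 986 CPM in control injured nerves (log2 fold change -1.11, SE 0.10, edgeR adjusted p = 9.20e-07). In RaptorKOs it had 1923, 1926, 1818, and 1931 CPM in contralateral and 909, 945, and 999.8 CPM in injured nerves (log2 fold change -1, SE 0.09, edgeR adjusted p = 4.24e-06). It fell without overlap in both genotypes. Timp3 shares 1733 exonic bases with Syn3 on the other strand, which had at most 59 counts. Timp2 had 971, 801, and 836 CPM in control contralateral, 794, 806, and 699.8 CPM in control injured, 818, 713, 975, and 844 CPM in RaptorKO contralateral, and 679, 669, and 723 CPM in RaptorKO injured nerves. It was not called in controls (log2 fold change -0.20, SE 0.11, edgeR adjusted p = 0.12) or in RaptorKOs (log2 fold change -0.28, SE 0.11, edgeR adjusted p = 0.0542), where 5 of 14 alternatives called it lower, the replicate block among them (adjusted p of 0.0162 to 0.121 over the 14, DESeq2 included).

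Levels can be compared between genes only per length, here as CPM per kb of annotated exon. On that scale Timp3 (median 277) and Timp2 (214) led in control contralateral nerves, and their ranges did not overlap (267 to 280.4 against 206 to 249). Mmp15 (81.3) and Mmp2 (51.6) followed, then Adamtsl5 (39.8) and Adamts5 (16.2). In control injured nerves Timp1 (206) and Timp2 (204) led with overlapping ranges (191 to 216 and 179.6 to 207), before Timp3 (125), Mmp2 (89.4), Mmp14 (60.2), Adamts1 (36.1), and Mmp17 (28.6). Timp1 made up 0.37% to 0.809% of the summed TIMP level in control contralateral and 37.2% to 39.4% in control injured nerves, and 43.1% to 45.3% in RaptorKO injured nerves. Mmp15 made up 49.1% to 52.1% of the summed MMP level in control contralateral and 8.1% to 11.6% in control injured nerves, while Mmp14 went from between 4.5% and 5.26% to between 21.8% and 27.9%. The summed TIMP level was 2.97 to 3.1 times the summed MMP level in control contralateral, 1.92 to 2.4 times in RaptorKO contralateral, 2.01 to 2.28 times in control injured, and 2.07 to 2.66 times in RaptorKO injured nerves. These sums describe transcripts and were not tested.

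**Figure D3:**
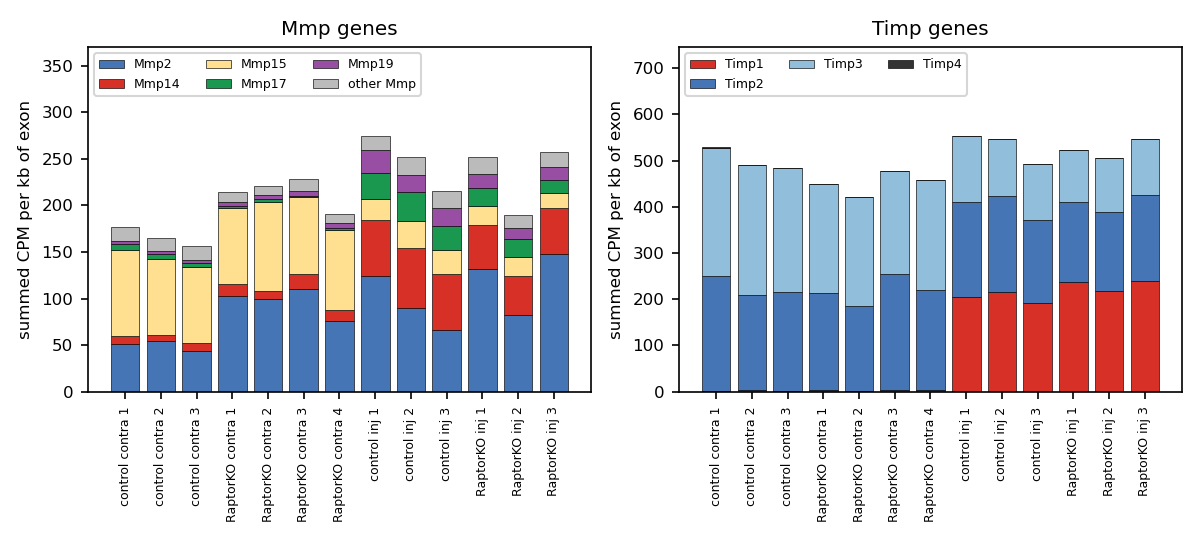
Stacked bars give the summed CPM per kb of exon of the Mmp genes (left) and the Timp genes (right) in each of the 13 libraries (contra, contralateral, and inj, injured), with colors for single genes. Mmp15 and Mmp2 fill most of the contralateral Mmp bars, Mmp14, Mmp17, and Mmp19 widen in the injured ones, and Timp1 is visible only in the injured bars of the Timp panel.

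Genes that act with these proteases were taken from 4 companion lists, whose counts stand against 32.1% higher and 32.3% lower of all tested genes in controls and 30.4% and 28.2% in RaptorKOs. In the plasminogen activator system, whose product plasmin activates pro-MMPs, 6 of 9 genes passed the filter and all 6 rose after injury in both genotypes. The urokinase receptor Plaur rose by 4.22 in controls and 4.29 in RaptorKOs, and the urokinase Plau by 2.53 and 2.84 (log2 fold changes). Of 13 tested activators, inhibitors, and surface partners, 5 rose and 6 fell in controls, and 5 rose and 5 fell in RaptorKOs. Cd44, a docking site for Mmp14, rose by 3.97 and 3.31, whereas the membrane-anchored MMP inhibitor Reck fell by 1.68 and 1.68, and the proprotein convertase Pcsk6 fell by 2.80 and 1.76 on the log2 scale. Of 10 membrane-bound ADAM genes, 7 rose and 2 fell in controls and 6 rose and 3 fell in RaptorKOs. Of 8 hyalectans and link proteins, the substrates of the proteoglycan-cleaving ADAMTS group, only versican (Vcan) passed the filter, and it rose by 1.04 in controls and 0.69 in RaptorKOs.

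The genotype comparison in contralateral nerves asked which members differed with loss of Raptor from SCs in uninjured nerve. Of the 31 members, 4 were higher and 3 lower in RaptorKOs, against 4.07% and 5.35% of all tested genes. The groups did not overlap for 7 members that lay above and 5 that lay below the controls, against 10.1% and 12.9% of all tested genes. The median size of the log2 fold change was 0.46 over the members and 0.19 over all tested genes.

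Mmp2 was nearly double in RaptorKO contralateral nerves, with 174, 182, and 149 CPM in controls against 345, 337, 371, and 255 CPM in RaptorKOs (1.96-fold, log2 fold change 0.97, SE 0.13, edgeR adjusted p = 0.00095). Adamts9 had 11.3, 12.3, and 13 CPM in controls against 29.4, 20.5, 28.9, and 18.9 CPM in RaptorKOs (log2 fold change 1.01, SE 0.18, edgeR adjusted p = 0.00585), and Adamts20 had 92.5, 94.9, and 84.6 CPM in controls against 123, 137, 120.1, and 145 CPM in RaptorKOs (log2 fold change 0.55, SE 0.09, edgeR adjusted p = 0.0053). The groups of these 3 genes did not overlap. Mmp14 was called with overlapping groups, since RaptorKO contralateral 2 lay within the control range (log2 fold change 0.63, SE 0.17, edgeR adjusted p = 0.0477). That call was lost when any 1 of control contralateral 1, 2, or 3 or RaptorKO contralateral 1, 3, or 4 was left out (edgeR adjusted p = 0.116, 0.182, 0.129, 0.117, 0.0762, and 0.057). Adamts1, with no overlap between the groups, just missed the call (log2 fold change 0.70, SE 0.20, edgeR adjusted p = 0.0527), and it was called in 7 of 14 alternatives (edgeR adjusted p of 0.00274 to 0.209 over all 14, DESeq2 included). The lowest of these values came from the replicate block, which between genotypes joins different mice by their number, so that call carries no weight as a paired test.

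Some markers of several cell types were also called higher in RaptorKO contralateral nerves. The fibroblast markers summed to 3663 to 4517 CPM in control and 5531 to 7921 CPM in RaptorKO contralateral nerves, with 4 of 8 called higher (Pdgfra, Lum, Dcn, and Col6a3) and 1 lower (Mfap5), and the macrophage markers to 164 to 188 and 268 to 336 CPM, with 5 of 10 called higher. The mast cell markers summed to 12 to 58.4 and 80 to 138 CPM, with 2 of 5 called higher. Of the 6 pericyte and smooth muscle markers 2 were called higher and 0 lower, with overlapping sums of 629 to 696 and 572 to 764 CPM. The part of these cells in the higher Mmp2, Mmp14, Adamts9, and Adamts20 levels was not tested.

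The 3 lower members were separated just as clearly. Adamts5 had 162, 175, and 186 CPM in control and 77.4, 72.3, 67.3, and 74.9 CPM in RaptorKO contralateral nerves, 2.37-fold lower (log2 fold change -1.25, SE 0.08, edgeR adjusted p = 5.24e-05). Mmp17 had 42.5, 34.1, and 32.5 CPM in controls against 7.93, 18.5, 10.7, and 15.8 CPM in RaptorKOs, 2.71-fold lower (log2 fold change -1.44, SE 0.25, edgeR adjusted p = 0.0052). Mmp28 had 25.9, 23.8, and 25.2 CPM in controls against 13.5, 11.3, 14.9, and 15.5 CPM in RaptorKOs (log2 fold change -0.85, SE 0.14, edgeR adjusted p = 0.00368). No RaptorKO library of these 3 genes reached the lowest control. Of the 8 SC markers, 4 were called lower here (S100b, Erbb3, and Cdh19 among them) and 1 higher (Ngfr), with sums of 60730 to 67410 CPM in controls and 52630 to 63660 CPM in RaptorKOs, and their part in the lower members was not tested. Adamts1 and Adamts5, neighbors on chromosome 16, thus pointed in opposite directions, at 0.70 and -1.25 on the log2 scale.

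The TIMPs were not called in contralateral nerves. Timp3 was lower in every RaptorKO than in every control (log2 fold change -0.23, SE 0.07, edgeR adjusted p = 0.0776), Timp1 had 2.4 ± 0.972 CPM in controls and 3.02 ± 0.731 CPM in RaptorKOs (mean ± SD, log2 fold change 0.32, edgeR adjusted p = 0.667), and Timp2 had 869 ± 89.6 and 838 ± 108 CPM (log2 fold change -0.04, edgeR adjusted p = 0.854). Mmp15, which led the Mmp genes per kb in control contralateral nerves, was not called either (log2 fold change 0.04, SE 0.09, edgeR adjusted p = 0.822). The log2 fold changes of the 5 ADAMTS-like genes ran from -0.29 for Adamtsl5 (edgeR adjusted p = 0.12) to 0.53 for Adamtsl3 (edgeR adjusted p = 0.276). Adamts2, Adamts6, and Mmp19 lay above, and Mmp23 below, the control range in every RaptorKO without being called (log2 fold change 0.57, edgeR adjusted p = 0.234, log2 fold change 0.43, edgeR adjusted p = 0.117, and log2 fold change -0.56, edgeR adjusted p = 0.249 for the last 3). The smallest differences were those of Mmp15, Adamts15, Timp2, and Adamts4, at 0.04, 0.04, -0.04, and -0.05 on the log2 scale. The 2 procollagen N-proteinases with ratios were uncalled at 0.79 for Adamts2 (edgeR adjusted p = 0.108) and 0.78 for Adamts14 (edgeR adjusted p = 0.166).

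**Figure D4:**
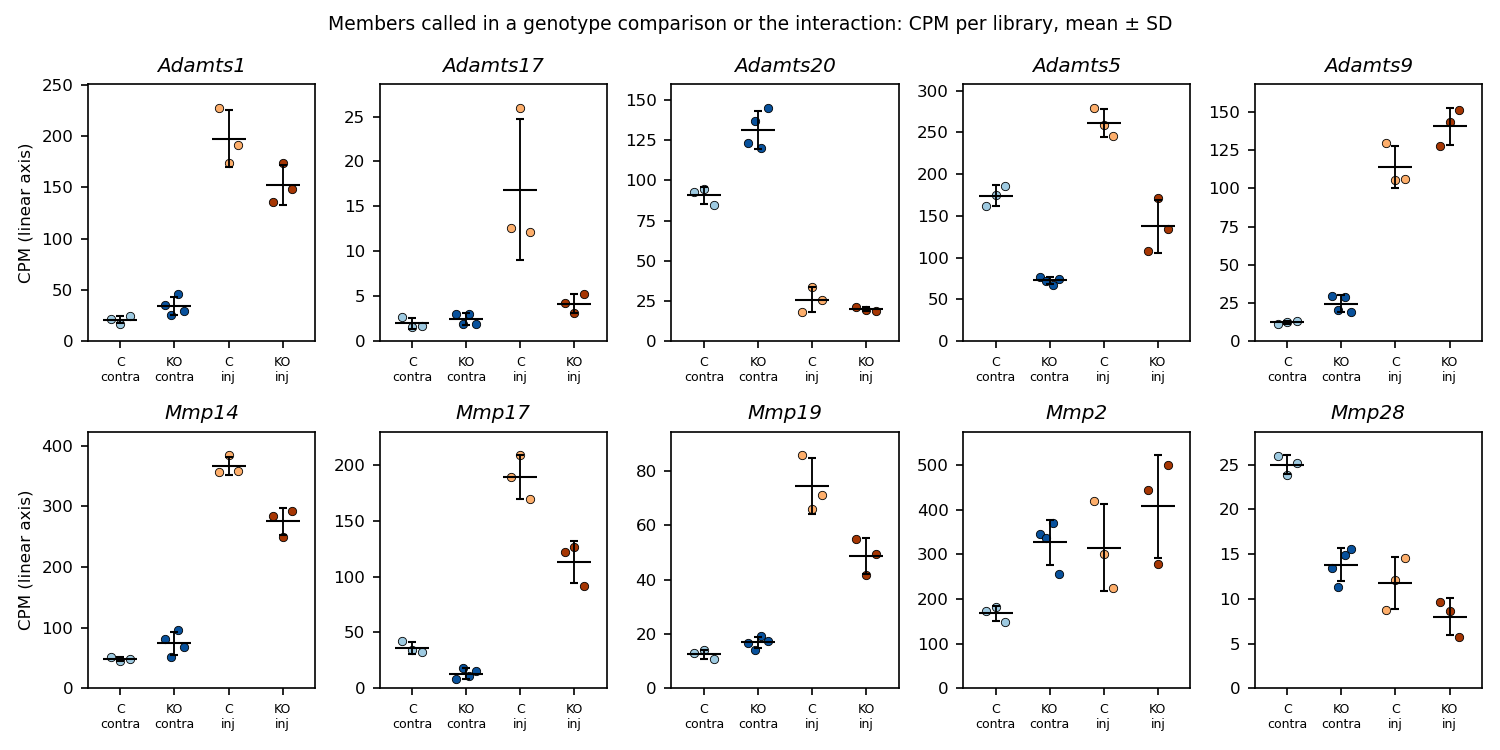
Each panel plots the CPM of 1 gene on a linear axis from 0, with 1 point per library and the mean ± SD of each group, for the 10 members called in a genotype comparison or in the interaction of genotype and injury (C, control, KO, RaptorKO, contra, contralateral, inj, injured). Mmp17 and Adamts5 are lower in RaptorKOs in both kinds of nerve, and the injured nerves of Adamts17 spread from 12.1 to 26 CPM in controls against 3.08 to 5.24 CPM in RaptorKOs.

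The genotype comparison in injured nerves asked which members differed 5 days after the crush. Here 4 of the 31 members were lower and 0 higher in RaptorKOs, against 4.05% and 3.68% of all tested genes by edgeR's quasi-likelihood test. At an unadjusted p below 0.05 the members numbered 9 lower and 6 higher, and DESeq2 called 7 lower and 2 higher. The groups did not overlap for 5 members that lay above and 7 that lay below the controls, against 11.9% and 14.1% of all tested genes. The median size of the log2 fold change was 0.41 over the members and 0.19 over all tested genes.

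Adamts17 showed the largest difference, with 12.6, 26, and 12.1 CPM in control injured and 4.19, 3.08, and 5.24 CPM in RaptorKO injured nerves, 4.03-fold lower (log2 fold change -2.01, SE 0.33, edgeR adjusted p = 0.00497). Without control injured 2 the log2 fold change was -1.55. Adamts17 reached the count minimum in 3 control injured libraries, 1 RaptorKO injured library, and 0 contralateral libraries. It thus met the filter through control injured nerves, and the filter itself selected for a high level there. With the 7 members that reached the minimum in injured or in contralateral nerves alone left out, 3 of 24 members were lower and 0 higher. Adamts5 had 279.5, 259, and 246 CPM in controls against 108, 171, and 134 CPM in RaptorKOs (log2 fold change -0.91, SE 0.16, edgeR adjusted p = 0.00588). Mmp17 had 189, 209, and 169.6 CPM in controls against 122, 126, and 91.5 CPM in RaptorKOs (log2 fold change -0.73, SE 0.14, edgeR adjusted p = 0.0101), and Mmp19 had 85.8, 66, and 70.9 CPM in controls against 55.1, 41.8, and 49.2 CPM in RaptorKOs (log2 fold change -0.60, SE 0.14, edgeR adjusted p = 0.0231). None of the 4 genes overlapped between genotypes. The Mmp17 call was lost without control injured 2 (edgeR adjusted p = 0.0528, 9.12e-06 to 0.0528 over 13 alternatives) and the Mmp19 call without control injured 1 (edgeR adjusted p = 0.0857, 0.000938 to 0.0857 over 13 alternatives).

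Mmp27, which passed the filter through control injured nerves alone, and other members missed the call narrowly. Mmp14 had 357, 385, and 359 CPM in controls against 284, 250.2, and 293 CPM in RaptorKOs, without overlap (log2 fold change -0.40, SE 0.11, edgeR adjusted p = 0.0509). Mmp15, at 120.1 to 156 against 89.5 to 110.4 CPM, and Mmp27, at 71, 73, and 80 against 40, 21, and 45 counts, did not overlap either (log2 fold change -0.41, edgeR adjusted p = 0.0794 and log2 fold change -1.17, edgeR adjusted p = 0.0732). Mmp2 had 419, 302, and 225 CPM in controls against 444, 279, and 499 CPM in RaptorKOs and was not called (log2 fold change 0.38, SE 0.23, edgeR adjusted p = 0.402). Mmp9 was not called (log2 fold change 0.73, SE 0.53, edgeR adjusted p = 0.499), nor were Timp1, although every RaptorKO lay above every control (log2 fold change 0.19, edgeR adjusted p = 0.33), Timp2 (log2 fold change -0.14, edgeR adjusted p = 0.54), and Timp3 (log2 fold change -0.14, edgeR adjusted p = 0.559). Adamtsl3 and Adamtsl2, which fell most after injury in controls, lay higher in every RaptorKO injured than in every control injured nerve without being called (log2 fold change 1.37, edgeR adjusted p = 0.123 and log2 fold change 0.97, edgeR adjusted p = 0.329), as did Adamts10 and Adamts15 (log2 fold change 0.57, edgeR adjusted p = 0.0884 and log2 fold change 0.47, edgeR adjusted p = 0.168).

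Markers of vascular and mast cells differed between these groups. In RaptorKO injured nerves all 6 endothelial markers were called higher (228 to 340.3 against 408 to 646 summed CPM), as were 4 of 6 pericyte and smooth muscle markers (443 to 536 against 849 to 1143 CPM) and 4 of 5 mast cell markers (8.47 to 52.2 against 102 to 194 CPM). Of the 8 SC markers 3 were called lower (S100b and Cdh19 among them), with sums of 5518 to 6102 CPM in controls and 4019 to 4987 CPM in RaptorKOs. The macrophage markers summed to 2812 to 3481 CPM in controls and 1885 to 3838 CPM in RaptorKOs, with overlapping groups. The part of these cells in the 4 lower members was not tested.

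**Figure D5:**
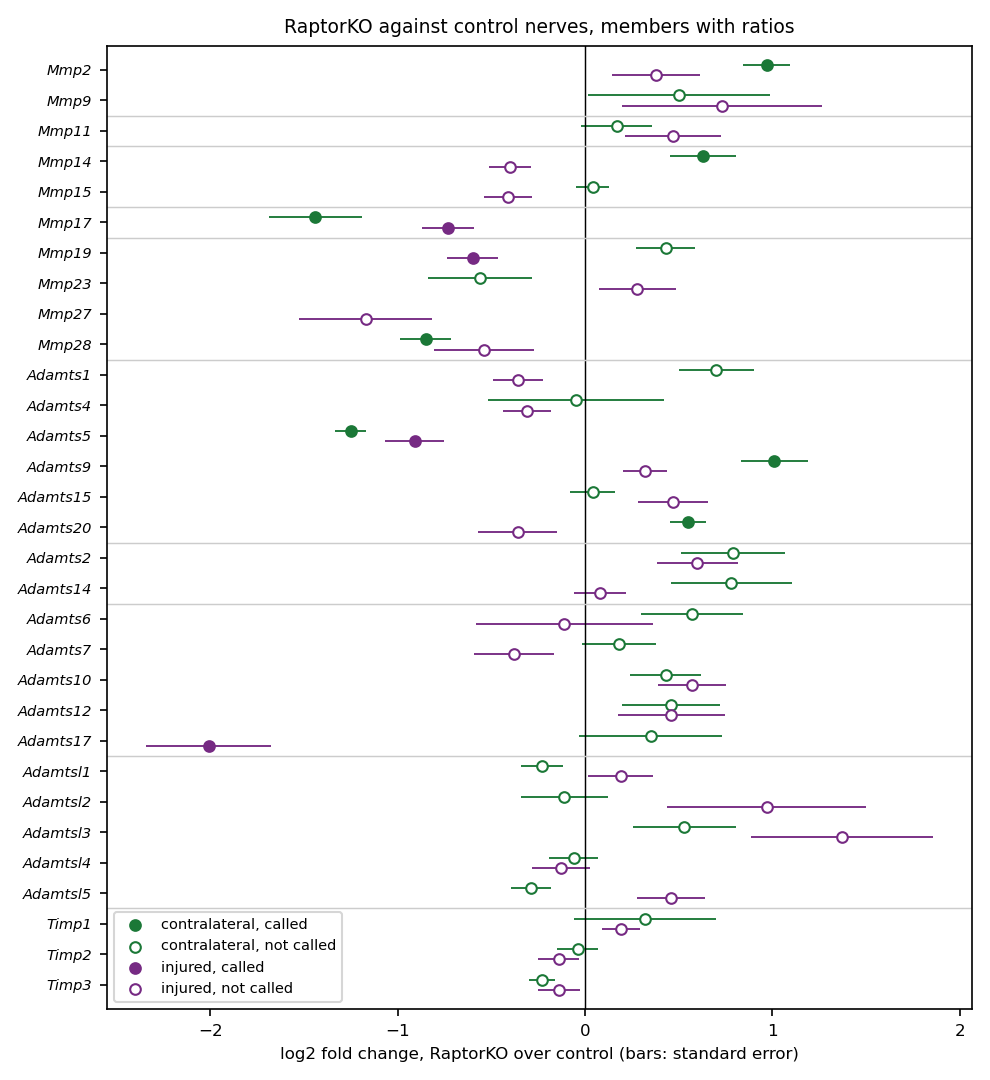
The log2 fold change of RaptorKO over control is plotted on the x axis for the members with ratios, grouped by role from gelatinases to TIMPs, with contralateral nerves in green, injured nerves in purple, filled points for called genes, and bars for the standard error. Adamts5 and Mmp17 are filled and left of 0 in both kinds of nerve, Adamts17 lies farthest to the left at -2.01 in injured nerves, and Mmp27 has no contralateral point because its control counts were all 0.

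Adamts5 is ENSMUSG00000022894 on chromosome 16 from 85856173 to 85901828 of GRCm38 and Mmp17 is ENSMUSG00000029436 on chromosome 5 from 129584169 to 129611099. Adamts17 is ENSMUSG00000058145 on chromosome 7 from 66839735 to 67153171, and Mmp19 is ENSMUSG00000025355 on chromosome 10 from 128790910 to 128800824. Mmp2 is ENSMUSG00000031740 on chromosome 8 from 92827291 to 92853420, and Mmp14 is ENSMUSG00000000957 on chromosome 14 from 54431612 to 54445364.

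Adamts5 and Mmp17 were the members called in both genotype comparisons, lower in RaptorKOs each time. These comparisons share no libraries, but their nerves likely come largely from the same mice, so the calls are likely not independent. The difference between the 2 genotype effects was not called for either gene, at 0.33 for Adamts5 (SE 0.18, edgeR adjusted p = 0.453) and 0.71 for Mmp17 (SE 0.30, edgeR adjusted p = 0.281).

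Whether the response to injury differed between genotypes was tested as an interaction over all 13 libraries, which are those of the other comparisons. A negative value means a smaller rise or a larger fall in RaptorKOs. Of the 31 members 5 were called negative and 0 positive, against 1.41% and 1.07% of all tested genes by edgeR's quasi-likelihood test. At an unadjusted p below 0.05 there were 8 negative and 4 positive members, and DESeq2 called 6 and 1. With the 7 members that reached the count minimum in injured or in contralateral nerves alone left out, 4 of 24 were negative and 0 positive. Adamts17, which met the filter through control injured nerves, is among those left out. Adamts17 had a log2 fold change after injury of 3.08 in controls against 0.74 in RaptorKOs (interaction -2.36, SE 0.51, edgeR adjusted p = 0.0257). Adamts1 rose by 3.21 against 2.17 (-1.07, SE 0.26, edgeR adjusted p = 0.0426), Mmp14 by 2.91 against 1.89 (-1.04, SE 0.23, edgeR adjusted p = 0.0264), and Mmp19 by 2.54 against 1.53 (-1.03, SE 0.21, edgeR adjusted p = 0.019). Adamts20 fell by 1.84 in controls against 2.72 in RaptorKOs (-0.91, SE 0.22, edgeR adjusted p = 0.0451). For Adamts1, Mmp14, and Mmp19 the RaptorKO mean was above the control mean in contralateral nerves and below it in injured nerves. For Adamts20 the contralateral nerves alone differed by call, and for Adamts17 the injured nerves alone.

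None of these 5 calls held throughout. With both libraries of control number 3 left out, 0 of the 5 were called (edgeR adjusted p = 0.0842 for Mmp19, 0.0691 for Adamts17, 0.0946 for Mmp14, 0.0872 for Adamts1, and 0.171 for Adamts20), an alternative chosen after the data were seen. Without control contralateral 3 alone none of the 5 stayed called either. The count was 1 without control injured 2, control contralateral 2, or RaptorKO contralateral 1, it was 2 without RaptorKO injured 1, RaptorKO injured 2, or control contralateral 1, and it was 3 without control injured 3 or RaptorKO injured 3. Mmp19 was lost without control contralateral 3 (edgeR adjusted p = 0.057) and, over all 18 alternatives, kept its call in 16, Adamts17 and Mmp14 in 11 each, Adamts1 in 8, and Adamts20 in 5. With the mouse number as a replicate block, which left out RaptorKO contralateral 4, Adamts20 was not called (edgeR adjusted p = 0.0609). The Timp genes were not called, with interactions of -0.09 for Timp1, -0.10 for Timp2, and 0.09 for Timp3 (SE 0.28, 0.16, and 0.12).

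In the companion lists, Plau was higher in RaptorKO injured nerves, at 16.7 to 18.2 against 25 to 44.1 CPM (log2 fold change 1.03, SE 0.19, edgeR adjusted p = 0.00964). Among the 13 activators, inhibitors, and surface partners, 2 were higher and 1 lower in contralateral nerves, against 4.07% and 5.35% of all tested genes. The broad protease inhibitor A2m was higher (log2 fold change 1.49, SE 0.18, edgeR adjusted p = 0.000489), Cd44 was higher (log2 fold change 0.54, SE 0.14, edgeR adjusted p = 0.0352), and Pcsk6 was lower, at 104 to 119.8 against 41.3 to 51.3 CPM (log2 fold change -1.27, SE 0.09, edgeR adjusted p = 5.24e-05). Among the 10 ADAM genes, Adam12 and Adam19 were higher and Adam10, Adam22, and Adam23 lower in contralateral nerves, and Adam12 was higher and Adam23 lower in injured nerves, where 3.68% and 4.05% of all tested genes were called. Adam23, which has no catalytic site, had 60.4 to 69.2 CPM in control and 21.3 to 26.4 CPM in RaptorKO injured nerves (log2 fold change -1.41, SE 0.13, edgeR adjusted p = 0.00022), and it rose after injury in controls and fell in RaptorKOs (0.52 and -0.47, interaction -1.02, edgeR adjusted p = 0.00275). Versican was not called in contralateral (log2 fold change 0.37, SE 0.14, edgeR adjusted p = 0.148) or injured nerves (log2 fold change -0.01, SE 0.28, edgeR adjusted p = 0.993).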

How the data were processed

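Estimated counts per gene (expected counts) were deposited by the authors for 13 nerve libraries. Per the labels and the study's methods, libraries were prepared from total RNA with a TruSeq mRNA kit, described in the methods as stranded and with ribosomal RNA depleted, reads were trimmed with Trimmomatic, and RSEM 1.2.22 assigned them to GRCm38. The strand setting used in counting is not given in the sources used here, so reads of overlapping genes on opposite strands may be mixed. For this work the counts were rounded to whole numbers, and symbols and positions came from a GRCm38 annotation that matched 40550 of 40787 identifiers. CPM are TMM-scaled counts per 1000000.

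Genes with 50 or more counts in at least 2 libraries were tested with edgeR 4.0.16 (R 4.3.3) by the quasi-likelihood test on the groups of each comparison, and on all 13 libraries for the interaction. P-values were adjusted over all tested genes by the Benjamini-Hochberg method. The steps were tested on simulated data. Deviations from the group means of injured and contralateral libraries with the same number correlated at 0.086 to 0.306 in controls and -0.025 to 0.239 in RaptorKOs. With different numbers they correlated at -0.192 to 0.113 and -0.332 to 0.143. These ranges overlap, so the correlations do not settle the pairing. The titles and the unilateral crush are the source of the likely pairing. Depths of 8200458 to 13581775 counts limit the precision of genes with few counts. Alternatives were DESeq2 1.42.0 (its size factors or its test), edgeR's exact test, no count filter, a filter within the comparison, all libraries in 1 fit, a replicate block, and leaving out each library.

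Members called in a genotype comparison or the interaction, the 4 largest called changes in each direction after injury in controls, the Timp genes, Mmp2, Mmp9, and Mmp14 are given by library, and other members by range. Companion genes are named by size of change among those called. The members, companion lists, and markers were chosen with earlier results of these data known. Promoter windows came from RefSeq (GRCm38.p6). Results for a few genes outside the families described are not reported here.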

Additional observations from a re-analysis of the deposited data

Results flagged for a closer look

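In 1 of the 31 members with ratios, Timp3, a single library stood apart within RaptorKO contralateral nerves, the only group of 4. Timp3 had 1923, 1926, 1818, and 1931 CPM, and the gap of RaptorKO contralateral 3 to the nearest other library was 0.929 of the whole range, above Dixon's critical value for 4 libraries. The adipocyte markers checked summed to 301.6 CPM in that library and 0.23 to 21.5 CPM in the rest of its group. That library also held the highest sums of its group for fibroblast (7921 CPM), perineurial (1785 CPM), endothelial, pericyte and smooth muscle, and skeletal muscle markers. It held the lowest for SC (52630 CPM), mast cell, and neutrophil markers. The part of these cells in the Timp3 value was not tested. Chance alone flags about 1 in 20 such groups.

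The response to injury differed between genotypes by the interaction test for 5 members, all negative. The interactions on the log2 scale were -2.36 for Adamts17, -1.07 for Adamts1, -1.04 for Mmp14, -1.03 for Mmp19, and -0.91 for Adamts20, and each call was lost in at least 2 of the 18 alternatives.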

How the results depend on the processing

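Of the calls on single members, 23 of 26 for injury in controls, 20 of 23 for injury in RaptorKOs, 2 of 4 for genotype in injured nerves (Adamts17 and Adamts5), and 6 of 7 for genotype in contralateral nerves (all but Mmp14) were kept under every alternative run, against 0 of 5 interactions. Adamts17 met the main count filter through control injured nerves, the group in which it was high. No called member changed direction under the alternatives run, whereas 20 of 90 uncalled values changed sign under at least 1.

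In injured nerves the number of members higher in RaptorKOs went from 0 to 2 with DESeq2's test, 4 with no count filter, 1 with edgeR's exact test, and 1 with the replicate block, and the number lower from 4 to 7 with DESeq2's test and 7 with no count filter. Positive interactions went from 0 to 1 with DESeq2's test and 1 with no count filter, and negative ones from 5 to 0 with both libraries of control number 3 left out. The replicate block changed the call of Adamts20 in the interaction (edgeR adjusted p = 0.0609) and of Timp2 after injury in RaptorKOs, and of no other member in the injury and interaction comparisons, where a shared number likely marks 1 mouse. Between genotypes a shared number marks different mice, and the block there moved the number of members higher in RaptorKO contralateral nerves from 4 to 9.

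Leaving out 1 library at a time gave 15 to 16 higher and 9 to 11 lower members for injury in controls, 11 to 14 and 9 to 10 for injury in RaptorKOs, 0 to 1 and 3 to 4 for genotype in injured nerves, 3 to 5 and 3 for genotype in contralateral nerves, and 0 to 1 positive and 0 to 5 negative interactions. The causes of these shifts were not tested. The 19 members without ratios had too few counts for a test at the chosen filter.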
